A study of Mus musculus with 10 samples.

Results

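PROMPTs, the short-lived antisense RNAs made upstream of gene promoters, were examined at protein-coding genes that are themselves weakly expressed in the P4 mouse testis. A region was included when its downstream gene averaged at least 1 and under 20 CPM in the control libraries, where CPM is the gene's count per 1000000 counts of its library. This rule found 2978 of the 30166 PROMPT regions and 22.6% of the 13203 regions that lie upstream of protein-coding genes. The regions were thus chosen by the control level of the gene, which is not a finding, whereas the antisense counts themselves were not used to choose them. The testes came from Dis3 cKO males (Dis3 F/-; Ddx4-Cre), whose floxed allele loses exons 4 to 6 in germ cells because the Ddx4 promoter drives Cre there from late fetal life, and from their littermate siblings, labelled Dis3 WT and called control. Somatic cells of the Dis3 cKO testis carry 1 deleted allele and keep a floxed one. The floxed allele was made in zygotes of B6D2F1 mice. All mice were at postnatal day 4, with 5 libraries per group and each library made from the pooled testes of 1 mouse. Because whole testes were sequenced, fewer cells of a type and less RNA per cell cannot be told apart.

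At most active mammalian promoters RNA polymerase II initiates in both directions. The upstream antisense product usually terminates early, is not exported and is removed within minutes by the nuclear RNA exosome, so it is scarce in normal cells. DIS3 is a catalytic subunit of the exosome, with both exonuclease and endonuclease activity, and human cells depleted of it are known to accumulate PROMPTs. Each region here covers the 3000 bases before an annotated gene start and holds reads only from the strand opposite to the gene.

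The promoter windows of 3 genes with some of the largest antisense increases are shown, because the upstream RNA begins in or near such windows. They are the first 3 in order of fold change that had an entry whose start lay within 100 bases of the region. Each runs from 250 bases before to 50 bases after the RefSeq start (build GRCm38.p6), 5′ to 3′ on the gene's strand, and capitals mark matches, on either strand, to the short motifs named after them.
Gtsf1: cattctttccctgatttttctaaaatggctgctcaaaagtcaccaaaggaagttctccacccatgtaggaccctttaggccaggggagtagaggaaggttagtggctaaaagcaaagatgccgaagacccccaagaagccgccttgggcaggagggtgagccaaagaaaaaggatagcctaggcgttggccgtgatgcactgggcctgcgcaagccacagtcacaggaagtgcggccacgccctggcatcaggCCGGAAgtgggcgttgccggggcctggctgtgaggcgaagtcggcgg
Nrbf2: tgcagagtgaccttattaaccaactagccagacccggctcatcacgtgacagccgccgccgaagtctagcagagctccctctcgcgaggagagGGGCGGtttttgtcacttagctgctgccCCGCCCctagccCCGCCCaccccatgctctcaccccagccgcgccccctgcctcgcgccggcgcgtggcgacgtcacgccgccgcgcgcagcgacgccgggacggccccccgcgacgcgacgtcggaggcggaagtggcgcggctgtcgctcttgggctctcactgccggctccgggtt
Map10: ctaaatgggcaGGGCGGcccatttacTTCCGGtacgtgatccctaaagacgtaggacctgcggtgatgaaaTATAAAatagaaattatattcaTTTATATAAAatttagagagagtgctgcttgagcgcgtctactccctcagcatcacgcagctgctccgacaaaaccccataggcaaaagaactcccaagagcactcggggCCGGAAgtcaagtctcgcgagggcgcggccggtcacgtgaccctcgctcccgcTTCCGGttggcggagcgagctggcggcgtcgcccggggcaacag
The Gtsf1 window is chr15:103430378-103430677 on the minus strand, the Nrbf2 window chr10:67285232-67285531 on the minus strand and the Map10 window chr8:125669568-125669867 on the plus strand. The letters searched were AATAAA (the polyadenylation signal), GGTAAG (a 5′ splice site), TATAAA (the TATA box), CCAAT (the CAAT box), GGGCGG (the GC box), CCGGAA (the core of an ETS site) and CGCATGCGC (the core of an NRF1 site). The Gtsf1 window held 1 match, CCGGAA on the gene strand from 3 bases past the start. The Nrbf2 window held GGGCGG once on the gene strand, 157 bases before the start, and on the antisense strand 129 and 117 bases before it. The Map10 window held 7 matches, 3 to CCGGAA, 3 to TATAAA and 1 to GGGCGG, and one TATAAA match on the gene strand overlapped another on the antisense strand. Among 32851 such windows of RefSeq, 14.9% held CCGGAA, 35.7% held GGGCGG and 13.6% held TATAAA on either strand. The polyadenylation signal, the 5′ splice site, CCAAT and the NRF1 core did not stand in the 3 windows, and 19.6%, 9.67%, 37.4% and 1.75% of all windows held them, in that order. A matching window was available for 1707 of the 2978 regions, 57.3%, which is under the 80% needed, so a comparison of promoter composition over the regions would be void and is not given.

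The libraries held 28538849 to 41104912 counts in genes, and the 2978 regions together held 26742 to 36382 counts in Dis3 cKO libraries and 16276 to 22134 in control libraries. A region therefore averaged 8.98 to 12.2 counts per Dis3 cKO library and 5.47 to 7.43 per control library, a depth at which only large differences are detectable at most single regions. The Dis3 gene had 1362 to 1709 normalized counts in Dis3 cKO testes and 4116 to 5161 in control testes (log2 fold change -1.62 ± 0.09 SE, adjusted p = 3.78e-07, edgeR). The summed level of 5 germ cell markers was 318 to 417 CPM in Dis3 cKO testes and 468 to 626 CPM in control testes, whereas the summed levels of Sertoli, Leydig, myoid, endothelial, macrophage and red cell markers overlapped between the groups. Of single markers, 2 germ cell and 1 Leydig cell marker were called lower and 1 myoid and 1 endothelial marker higher (edgeR). Replicates 4 and 5 of each group were close to each other and apart from replicates 1 to 3 in their antisense background. Replicates 1 to 3 varied among themselves in this background, and in Dis3 cKO they lay on both sides of replicates 4 and 5. No label describes this split, so values within these subsets are given where they matter.

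Antisense RNA upstream of weakly expressed genes was about 1.90-fold more abundant in Dis3 cKO testes. It was summed over the 2978 regions and scaled to 1000000 effective gene counts, which are a library's gene counts times its TMM normalization factor. The sum reached 1292, 933, 913, 875 and 871 in Dis3 cKO replicates 1 to 5, against 594, 587, 507, 449 and 440 in control replicates 1 to 5. Every Dis3 cKO library lay above every control library, with means of 977 ± 178 in Dis3 cKO and 515 ± 73.2 in control (SD, n = 5 each; log2 ratio 0.92). The ratio was 1.86-fold within replicates 1 to 3 and 1.97-fold within replicates 4 and 5. The 20 regions with the most counts held 17.98% of the sum, and the log2 ratio was 0.97 without them.

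Antisense counts were also found upstream of processed pseudogenes, most of which are silent copies of mRNAs. The same measure upstream of 5869 processed pseudogenes was 877, 372, 336, 596 and 585 in Dis3 cKO replicates 1 to 5 and 572, 574, 418, 325 and 305 in control replicates 1 to 5. These groups overlapped, and their means of 553 ± 216 in Dis3 cKO and 439 ± 129 in control had a ratio of 1.26-fold. The ratio was 1.01-fold within replicates 1 to 3, where the groups overlapped, and 1.87-fold within replicates 4 and 5, where they did not, beside 1.97-fold for the weakly expressed genes in the same libraries. Dis3 cKO replicates 2 and 3 had less of this background than control replicates 1 to 3 and more antisense RNA at weakly expressed genes, whereas Dis3 cKO replicates 1, 4 and 5 had more of both than any control library. When the background per region was subtracted library by library, an alternative chosen after seeing the data, 847, 744, 742, 573 and 575 remained on this scale in Dis3 cKO replicates 1 to 5 and 304, 295, 295, 284 and 285 in control replicates 1 to 5. The means of 696 ± 120 in Dis3 cKO and 292 ± 8.24 in control then differed 2.38-fold, with 2.61-fold in replicates 1 to 3 and 2.02-fold in replicates 4 and 5. The subtraction assumes that both kinds of region receive the same background per region, which was not tested.

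**Figure D1:**
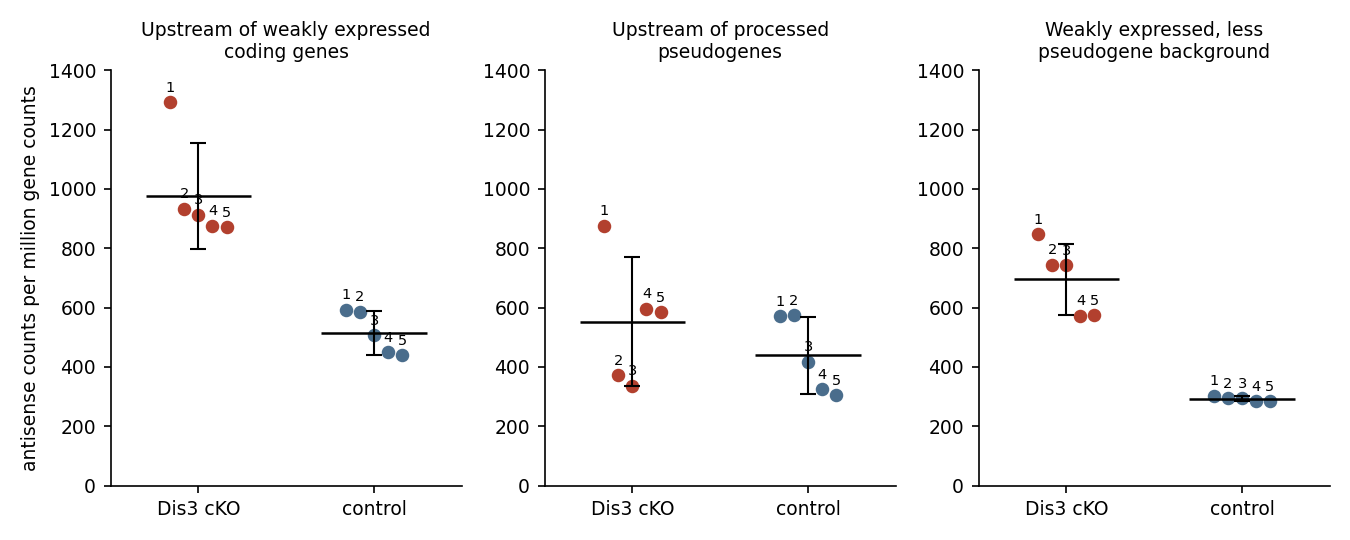
Summed antisense counts per 1000000 effective gene counts in each library, with Dis3 cKO on the left and control on the right of each panel. Points carry the replicate number, and bars give the mean and SD of 5 libraries. Upstream of weakly expressed genes the groups do not overlap, upstream of processed pseudogenes they do, and after subtraction the 5 Dis3 cKO libraries range over 573 to 847 and those of control over 284 to 304.

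At single regions, 326 of the 1829 that averaged at least 3 counts per library were higher in Dis3 cKO testes and 1 was lower (adjusted p under 0.05, edgeR's quasi-likelihood test with Benjamini-Hochberg adjustment over all 12345 tested regions of the series). That is 17.8% of the tested regions, against a background of 13.6% called higher over all tested regions and 0.0486% called lower. The other 1149 regions fell below the count minimum and were not tested. Of the tested regions, 1521 had a fold change above 0, or 83.2%, against 77.8% over all tested regions. The median log2 fold change was 0.88, against 0.64 over all tested regions. The count minimum is taken over all libraries, so regions could pass it through the group in which they are high, and with the minimum set on the control mean alone 271 of 1614 regions were called higher and these medians were 0.56 and 0.29. Every Dis3 cKO library exceeded every control library at 246 of the 1829 regions, or 13.5%, against 11.1% of all tested regions, and 195 of these 246 were among the 326 called. The called increases had a median log2 fold change of 2.08 (quartiles 1.64 and 2.71), and 178 of them exceeded 4-fold. With the library sizes taken from the pseudogene background instead of the genes, 187 regions were called higher, all of them among the 326, and 0 lower (11 at an unadjusted p under 0.05). These were 10.2% of the tested regions, against 7.995% over all tested regions. With sizes taken from the PROMPT counts themselves 116 were called higher and 14 lower, or 6.34% and 0.765%, against 5.18% and 0.988% over all tested regions.

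Detection followed the number of counts. Of the 244 regions whose mean normalized count reached 20 or more, 54.9% were called higher, close to the 52.8% of all 1644 tested regions at that level, and of the 1585 regions below 20 counts 12.1% were, or 192. The Dis3 cKO level contributes to this mean, so the split is a description. Median counts of the called regions were 26.3 in Dis3 cKO and 5.91 in control libraries.

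The 2 subsets of libraries share no sample and can be set side by side. Replicates 1 to 3 alone gave 272 regions called higher, or 14.1% of those tested there against 10.8% over all regions. Of these, 264 had a value in replicates 4 and 5, and 256 had a fold change above 0 there. The median log2 fold change in replicates 4 and 5 alone was 1.18 over all tested regions, so a value above 0 was common there. Replicates 4 and 5 alone gave 72, or 4.26% against 3.85% over all regions, with 52 in common, which is 19.12% of the 272 and 72.2% of the 72. Over the 1444 regions tested in both subsets, 972 were above 0 in both, and the correlation of the log2 fold changes was 0.23, a description across sparse regions that share their sequence.

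The share of called regions was larger at higher levels of the downstream gene. Among genes at 1 to under 2 CPM, 19 of 215 tested regions were called higher, or 8.84%. Among genes at 2 to under 5 CPM 58 of 404 were, or 14.4%, and among genes at 5 to under 10 CPM 96 of 504, or 19.0%. Among genes at 10 to under 20 CPM it was 153 of 706, or 21.7%. The median log2 fold changes in these ranges were 0.70, 0.80, 0.90 and 0.94. The summed level per 1000000 effective gene counts and 1000 regions did not overlap between the groups in any of the 4 ranges: it was 157 to 250 in Dis3 cKO and 86.2 to 141 in control libraries for genes at 1 to under 2 CPM, and 432 to 613 in Dis3 cKO and 230 to 275 in control libraries for genes at 10 to under 20 CPM.

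Values at neighbouring gene levels were placed beside these. Upstream of coding genes under 1 CPM, 33 of 1582 tested regions were called higher, or 2.09%, and upstream of processed pseudogenes 17 of 1706, or 0.997%. Upstream of genes at 20 to under 100 CPM 746 of 2570 were, or 29.0%, and at 100 CPM or more 416 of 1327, or 31.3%. Counts per region differ between these classes as well. Among regions with a mean of at least 20 counts, the called share was 54.9% at weakly expressed genes, against 52.8% over all regions, and 59.0% at 20 to under 100 CPM, 55.2% at 100 CPM or more, 19.0% at genes under 1 CPM (8 of 42) and 7.5% at pseudogenes (3 of 40). Within the weakly expressed genes it was 6 of 15 regions at 1 to under 2 CPM, 18 of 33 at 2 to under 5 CPM, 38 of 66 at 5 to under 10 CPM and 72 of 130 at 10 to under 20 CPM. The differences between classes were not tested.

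**Figure D2:**
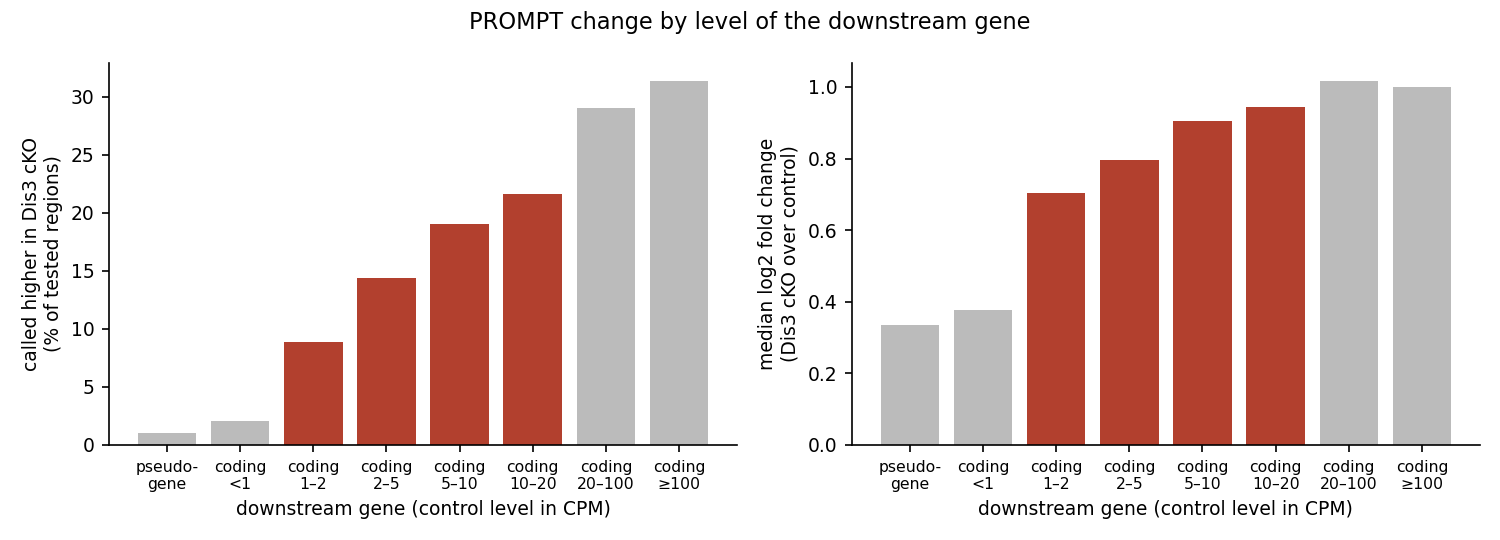
Share of tested PROMPT regions called higher in Dis3 cKO (left, %) and median log2 fold change (right, Dis3 cKO over control) by level of the downstream gene in control CPM. Red bars are the weakly expressed coding genes, rising from 8.84% to 21.7%, and grey bars are the other classes.

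The bounds of the rule cut through a continuous range. Just inside the lower bound, Hmga2 at 1.0027 CPM had mean antisense counts of 4.17 in Dis3 cKO and 1.28 in control, and Trim5 at 1.0028 CPM had 0.741 in Dis3 cKO and 0 in control. Just outside it, Ptprn at 0.9983 CPM had 3.95 in Dis3 cKO and 1.95 in control, and Cd72 at 0.9974 CPM had 36.7 in Dis3 cKO and 63.0 in control. Just inside the upper bound, Trim39 at 19.9965 CPM had 72.7 in Dis3 cKO and 50.5 in control, and C2cd5 at 19.9906 CPM had 8.08 in Dis3 cKO and 1.64 in control. Just outside it, Plekhf2 at 20.0021 CPM had 17.3 in Dis3 cKO and 4.599 in control, and Pttg1 at 20.0107 CPM had 3.27 in Dis3 cKO and 2.94 in control.

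The 10 regions described next were ranked by fold change, and such a ranking favours regions with few antisense counts in control testes. The values that follow are normalized counts per library, which are counts scaled to the mean effective library size, for the 10 largest called fold changes among the 94 called regions that averaged 20 counts or more and no overlap between the groups. Gtsf1, whose protein is a PIWI partner in the piRNA pathway of germ cells, had 93.8, 44.6, 49.2, 56.5 and 28.3 antisense counts in Dis3 cKO replicates 1 to 5, against 0, 7.54, 0.840, 5.75 and 0 in control replicates 1 to 5 (log2 fold change 4.23 ± 0.47 SE, adjusted p = 1.03e-16, edgeR). Its region lies at chr15:103430471-103433470 (GRCm38). Coprs, which encodes a cofactor of the arginine methyltransferase PRMT5, had 65.4, 40.8, 39.1, 24.4 and 33.97 counts in Dis3 cKO and 0.932, 3.77, 0.840, 0 and 6.43 in control (log2 fold change 4.02 ± 0.52). Groups that do not overlap were a condition of this choice, so their separation at these genes is not a separate result.

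Polr2k, a small subunit common to the nuclear RNA polymerases, had 81.5, 59.8, 81.6, 52.1 and 52.1 antisense counts in Dis3 cKO and 7.46, 0.943, 9.24, 2.88 and 0 in control (log2 fold change 3.93 ± 0.42). Nrbf2, a subunit of the autophagy lipid kinase complex, had 76.5, 87.4, 100.6, 29.9 and 41.9 in Dis3 cKO and 7.46, 12.3, 2.52, 0.959 and 0 in control (3.83 ± 0.41). Here replicates 4 and 5 were the lowest of both groups. Cyb561, an electron carrier of secretory vesicle membranes, had the highest counts of the 10, with 391, 324, 329, 219 and 208 in Dis3 cKO and 11.2, 22.6, 17.6, 34.5 and 27.6 in control (3.69 ± 0.25, adjusted p = 1.11e-41, edgeR, the lowest of all weakly expressed genes).

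The other 5 of the 10 were Map10 (a microtubule-associated protein), Rdm1 (a relative of the recombination protein RAD52), Ugt8a (the galactosylceramide synthase of myelin), Fdps (farnesyl pyrophosphate synthase) and Get1 (which inserts tail-anchored proteins into the endoplasmic reticulum). Their antisense counts averaged 47.9 ± 21.7, 144 ± 54.4, 67.1 ± 13.2, 45.2 ± 8.99 and 53.0 ± 13.5 in Dis3 cKO, in that order, and 4.02 ± 3.37, 14.6 ± 3.77, 6.77 ± 4.85, 4.66 ± 3.01 and 5.46 ± 3.002 in control (SD, n = 5 each). Their log2 fold changes lay between 3.24 and 3.53. All 10 remained called with the pseudogene scaling, and 9 of the 10 were also called in replicates 4 and 5 alone, Map10 being the exception (adjusted p = 0.150, edgeR). The same libraries were used to choose the 10, so these calls are not independent of the choice.

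**Figure D3:**
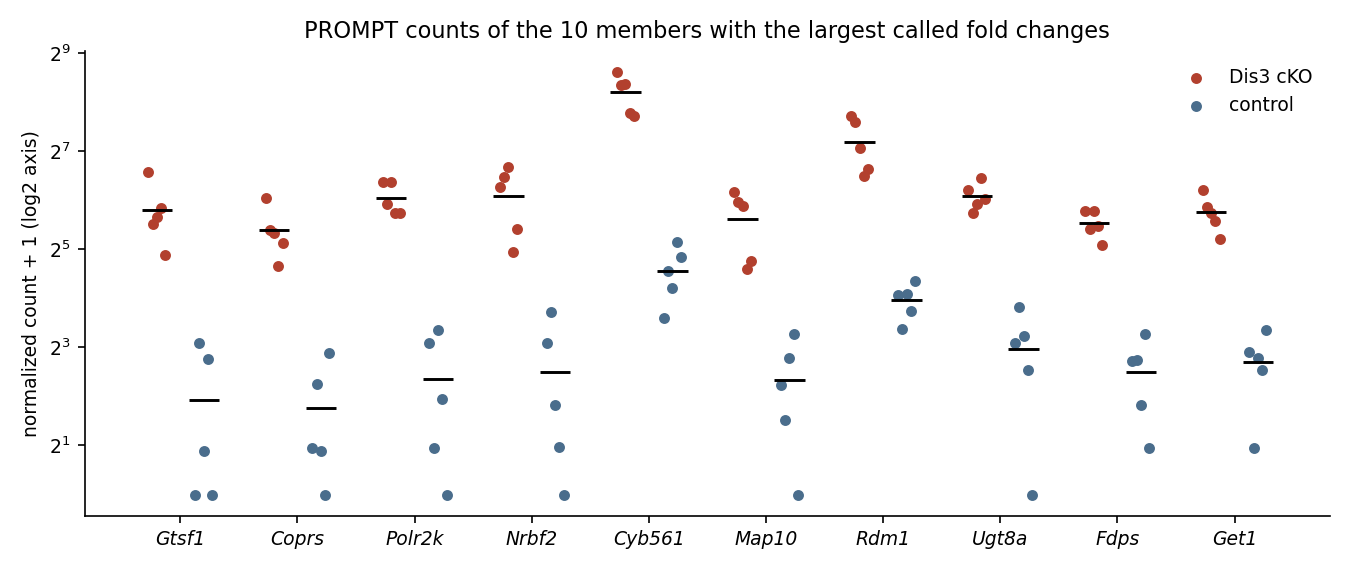
Normalized antisense counts plus 1 (log2 axis) in each library for the 10 regions with the largest called fold changes, Dis3 cKO in red on the left and control in blue on the right of each gene, with the group mean as a line. The points of the groups do not overlap at any of the 10, which the choice required, and Cyb561 and Rdm1 have the highest counts.

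The 5 regions with the lowest adjusted p included those of Cyb561, Tmem97, Rdm1 and Bcl6b, which all lie on chromosome 11. Tmem97, the sigma-2 receptor, had 501, 493, 355, 248 and 298 antisense counts in Dis3 cKO and 50.3, 51.8, 37.8, 30.7 and 46.9 in control (log2 fold change 3.12 ± 0.23). Every Dis3 cKO library was several times above every control library, and replicate 1 was the highest Dis3 cKO library.

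The most abundant antisense RNAs in control testes had smaller fold changes, and choosing regions by control count favours this. The 5 regions with the highest control counts belonged to Oxtr, Rpl10l, Polr1e, Mtrf1 and Med26, with log2 fold changes of -0.89 to 0.62. Upstream of Oxtr, the oxytocin receptor, 1661, 1724, 1731, 2290 and 2406 counts were found in Dis3 cKO and 1041, 913, 1197, 1647 and 1596 in control. Every Dis3 cKO library lay above every control library, and replicates 4 and 5 were the highest of both groups (log2 fold change 0.62 ± 0.12, adjusted p = 1.85e-05, edgeR). The fold change was 0.25 with the pseudogene scaling, where it was not called (adjusted p = 0.889, edgeR), and -0.13 with sizes from the PROMPT counts.

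Polr1e, a subunit of RNA polymerase I, was the only weakly expressed gene whose upstream antisense RNA was called lower with library sizes from the genes (14 were with sizes from the PROMPT counts). Its region (chr4:45015583-45018582, GRCm38) had 201, 227, 179, 87.5 and 90.6 counts in Dis3 cKO and 243, 317, 313, 280 and 301 in control (log2 fold change -0.89 ± 0.21, adjusted p = 0.00028, edgeR). The groups did not overlap, and Dis3 cKO replicates 4 and 5 were the lowest. Within replicates 1 to 3 the fold change was -0.52 and was not called (adjusted p = 0.0676, edgeR), and within replicates 4 and 5 it was -1.70. With the pseudogene scaling it was -1.10 (adjusted p = 0.0522, edgeR). The next annotated gene in the direction of this antisense RNA, Zbtb5, starts 3171 bases beyond the far end of the region, so RNA from an unannotated start of that gene cannot be told apart from a PROMPT here. The Mtrf1 region likewise ends 3994 bases before the start of Naa16, the Coprs region 3030 bases before that of Gm7676, the Bcl6b region 1919 bases before that of Mir497 and the Xrcc2 region 1401 bases before that of Gm43142.

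Rpl10l, a retrogene of a ribosomal protein used in the male germ line, had 458, 493, 428, 211 and 148 counts in Dis3 cKO and 336, 282, 358, 286 and 234 in control, so that Dis3 cKO replicates 1 to 3 were above and replicates 4 and 5 below every control library (log2 fold change 0.22 ± 0.19, adjusted p = 0.618, edgeR). Within replicates 1 to 3 its fold change was 0.50, which was called higher (adjusted p = 0.0399, edgeR), and within replicates 4 and 5 it was -0.53 (adjusted p = 0.208, edgeR). Mtrf1, a mitochondrial release factor, had 409, 282, 278, 175 and 155 in Dis3 cKO and 212, 144, 157, 166 and 164 in control (0.62 ± 0.21, adjusted p = 0.0224, edgeR). That call was lost without Dis3 cKO replicate 1, 2 or 3 or control replicate 2, 3, 4 or 5, with adjusted p of 0.255 without Dis3 cKO replicate 1, and with the pseudogene scaling. Med26, a subunit of Mediator, had 118 to 154 counts in Dis3 cKO and 120 to 177 in control (-0.12 ± 0.22, adjusted p = 0.874, edgeR), and the groups overlapped. With sizes from the PROMPT counts it was called lower (-0.83, adjusted p = 0.0115, edgeR).

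**Figure D4:**
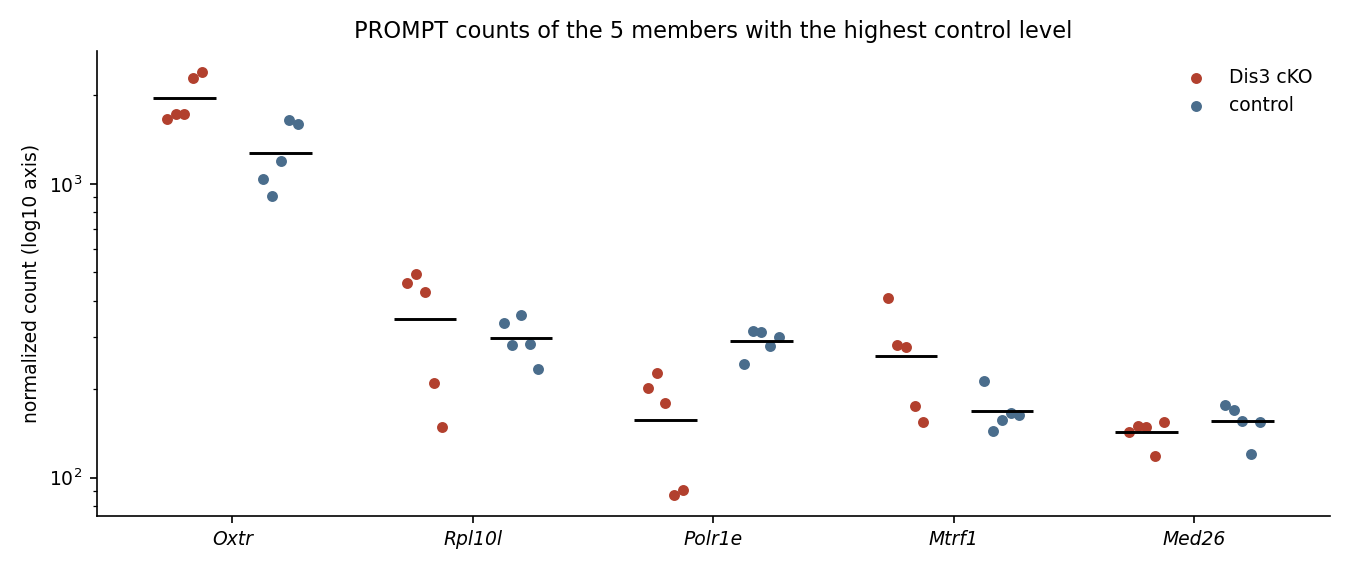
Normalized antisense counts (log10 axis) in each library for the 5 regions with the highest control level, Dis3 cKO in red on the left and control in blue on the right of each gene, with the group mean as a line. Oxtr is higher and Polr1e lower in every Dis3 cKO library, and the groups overlap at Rpl10l, Mtrf1 and Med26.

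At germ cell genes many mRNAs were lower in Dis3 cKO testes while several upstream antisense RNAs were higher. Among 81 germ cell genes tested as genes, 40 were called lower (edgeR), against 3.48% of all tested genes. Of the list, 32 belong to the weakly expressed genes, and 15 of these 32 were called lower as genes. Of their 19 tested antisense regions all 19 had a fold change above 0, against 77.8% of all tested regions and 83.2% of those at weakly expressed genes. Their median log2 fold change was 1.43, and 5 were called higher, namely those of Bcl6b, Gtsf1, Pou5f1, Dmc1 and Tex19.1. The share of 26.3% stands beside 13.6% over all tested regions and 17.8% over those at weakly expressed genes. The summed antisense level of the 32 regions was 24.9 ± 6.30 per 1000000 effective gene counts in Dis3 cKO and 12.3 ± 2.13 in control (SD, n = 5 each). The 5 germ cell markers summed above (Ddx4, Dazl, Sall4, Dppa3 and Mael) are part of this list, so their lower sum is not a separate observation. Of these markers Dazl and Mael were called lower as genes (log2 fold change -0.67 and -0.76), whereas Ddx4 and Sall4 were not (-0.26 and -0.08). The part of the lower marker sum in the result was not tested.

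Bcl6b, a transcription factor of spermatogonial stem cells, had 277, 261, 257, 167 and 237 antisense counts in Dis3 cKO and 47.5, 52.8, 24.4, 40.3 and 22.1 in control (log2 fold change 2.68 ± 0.25, adjusted p = 1.2e-23, edgeR). Its region and that of Slc16a13 lie near each other on chromosome 11, at 70229799 to 70232798 and 70221065 to 70224064, and hold reads of the same strand, and whether 1 RNA spans both was not tested. Pou5f1, which encodes the pluripotency factor OCT4, had 19.8, 18.04, 6.71, 7.75 and 23.8 in Dis3 cKO and 0, 0, 0.840, 0 and 3.68 in control (3.89 ± 0.87, adjusted p = 1.48e-04, edgeR). Its groups did not overlap, although the counts are few.

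Few somatic genes were among the weakly expressed genes. The lists of Sertoli, Leydig and steroid, and myoid, stromal, vascular and macrophage genes held 2, 3 and 9 weakly expressed members with 2, 2 and 6 tested regions, none of which was called by edgeR or DESeq2 and 1 of which, in the last list, had an unadjusted p under 0.05. Their median log2 fold changes were 0.29, -0.07 and -0.15. The summed antisense levels were 0.381 ± 0.225 in Dis3 cKO and 0.314 ± 0.103 in control for the Sertoli list, and 0.974 ± 0.440 in Dis3 cKO and 0.897 ± 0.368 in control for the myoid, stromal, vascular and macrophage list. At such levels a difference was not detectable. The list of exosome subunits, cofactors and PROMPT decay factors had 1 weakly expressed member, Zc3h3, whose region was not called by either tool, and of its 45 tested genes 6 were lower, one of them Dis3 itself, and 1 was higher in Dis3 cKO, against 3.48% lower and 4.42% higher over all tested genes.

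Other groups of weakly expressed genes were spread around the background of 13.6% and the 17.8% of all tested regions at weakly expressed genes. DNA repair genes had 4 of 11 tested regions called higher, those of Xrcc2, Poli, Neil2 and Fancg. Xrcc2, which acts in homologous recombination, had 14.4 to 25.7 antisense counts in Dis3 cKO and 0 to 5.66 in control (log2 fold change 2.77 ± 0.68). Poli, a translesion DNA polymerase, had 36.9 to 46.9 in Dis3 cKO and 9.43 to 21.4 in control (1.47 ± 0.39). Neil2, a DNA glycosylase, had 20.4 to 53.1 in Dis3 cKO and 4.66 to 10.5 in control (1.78 ± 0.48). In each of these the groups did not overlap, while the Neil2 call was lost without Dis3 cKO replicate 1 (adjusted p = 0.0594, edgeR). The Poli and Neil2 calls were also lost with the pseudogene scaling (adjusted p = 0.128 and 0.123, edgeR) and with sizes from the PROMPT counts (0.3348 and 0.2935).

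Cilium and centrosome genes had 3 of 10 tested regions called higher. Cep72, a centrosomal protein, had 21.2 to 45.4 antisense counts in Dis3 cKO and 0 to 11.3 in control (log2 fold change 3.0 ± 0.51), and Ift56, of the intraflagellar transport machinery, had 37.4 to 56.5 in Dis3 cKO and 13.98 to 28.3 in control (1.36 ± 0.36). Spata7 had 4.53 to 21.05 in Dis3 cKO and 0 to 5.88 in control, so the groups overlapped. The Spata7 call (2.02 ± 0.69) was lost without any of Dis3 cKO replicates 1, 3 and 4 and control replicate 4, with adjusted p of 0.0667 to 0.105 (edgeR). It was also lost in replicates 1 to 3 alone (0.108), with the replicate number as a block (0.0565) and without a count minimum (0.0695, edgeR). With the pseudogene scaling the Ift56 and Spata7 calls were lost (adjusted p = 0.121 and 0.0927, edgeR), as they were with sizes from the PROMPT counts (0.3805 and 0.3526). Solute carrier genes had 12 of 54 called higher, or 22.2%, among them Slc16a13 and Slc9a8. Slc16a13, a monocarboxylate transporter family member, had 184, 117, 161, 58.7 and 53.2 in Dis3 cKO and 23.3, 26.4, 51.2, 47.9 and 31.2 in control, a fold change of 2.18 within replicates 1 to 3 and 0.51 within replicates 4 and 5 on the log2 scale. Slc9a8, a sodium-proton exchanger, had 38.5 to 76.0 in Dis3 cKO and 7.35 to 19.8 in control (2.02 ± 0.36).

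Zinc finger protein genes formed the largest list, with 9 of 77 tested regions called higher, or 11.7%, and a median log2 fold change of 0.82. Zfp583 had 14.7 to 61.7 antisense counts in Dis3 cKO and 1.84 to 7.67 in control (log2 fold change 2.96 ± 0.45). Zfp119a had 19.0 to 50.6 in Dis3 cKO and 0.919 to 8.48 in control (2.92 ± 0.51), and Zfp69 had 35.5 to 70.4 in Dis3 cKO and 4.59 to 20.7 in control (1.96 ± 0.37). The groups overlapped at none of the 3. Homeobox and other developmental transcription factors had 3 of 17 called higher, those of Foxr1 (2.85 ± 0.53), Klf2 (2.09 ± 0.53) and Six4 (1.78 ± 0.60), and the groups overlapped at Klf2. The Six4 call was lost without any of Dis3 cKO replicates 2, 3 and 5 and control replicates 1, 2 and 3, with adjusted p of 0.0531 to 0.0933 (edgeR), and with the pseudogene scaling (0.164), and with sizes from the PROMPT counts Six4 and Klf2 were not called (0.408 and 0.115).

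Shares below the background were seen for the remaining lists. Ion channel and G protein-coupled receptor genes had 4 of 47 called higher, or 8.51%, with a median of 0.53. Kcnc2, a potassium channel, had 36.6 to 89.4 counts in Dis3 cKO and 8.48 to 25.2 in control (log2 fold change 2.43 ± 0.35). Kcng3, a modulatory potassium channel subunit, had 23.8 to 88.9 in Dis3 cKO and 22.1 to 38.7 in control (1.09 ± 0.32), with overlap between the groups, and its call was lost with the pseudogene scaling (adjusted p = 0.263, edgeR) and with sizes from the PROMPT counts (0.724). Ubiquitin ligase and protease genes had 2 of 23 called higher, or 8.70%. These were Rnf32 (1.64 ± 0.37) and Trim45 (1.33 ± 0.47), of which Trim45 was lost without any of Dis3 cKO replicates 1, 2 and 3 and control replicates 1, 2 and 4, with adjusted p of 0.0517 to 0.162 (edgeR), and with the pseudogene scaling (0.343). With sizes from the PROMPT counts neither Rnf32 nor Trim45 was called (0.124 and 0.691). Of the 38 regions called higher that the rule for named regions chose, 12 lost the call with the pseudogene scaling, 14 with sizes from the PROMPT counts, 20 in replicates 4 and 5 alone and 2 in replicates 1 to 3 alone. No list was tested as a whole.

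The downstream genes themselves changed little. All 2978 were tested as genes, and 48 were higher in Dis3 cKO testes and 122 lower (adjusted p under 0.05, edgeR), or 1.61% and 4.10%, against 4.42% higher and 3.48% lower over all 20043 tested genes. Their control level was used by the rule, and the counts of called genes moved widely with the libraries: replicates 4 and 5 alone gave 328 higher and 280 lower, or 11.01% and 9.40%, against 11.7% in each direction over all genes, and leaving out either control replicate 1 or 2 gave 26 higher. Without control replicate 1, 2 or Dis3 cKO replicate 5, 75, 77 and 78 genes were lower, and without Dis3 cKO replicate 2 or 3, 30 and 31 were higher. Of the 326 genes with a called antisense increase, 3 were higher, 24 lower and 299 in neither direction, with a median gene log2 fold change of -0.13 (quartiles -0.27 and 0.04). The share called lower was larger than the 4.10% of all 2978 genes and the 3.48% of all tested genes. The share called higher was smaller than the 1.61% and 4.42% there, and these differences were not tested. Over the 1829 tested regions the correlation of antisense and gene log2 fold changes was -0.10, a description across genes that share the same libraries.

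**Figure D5:**
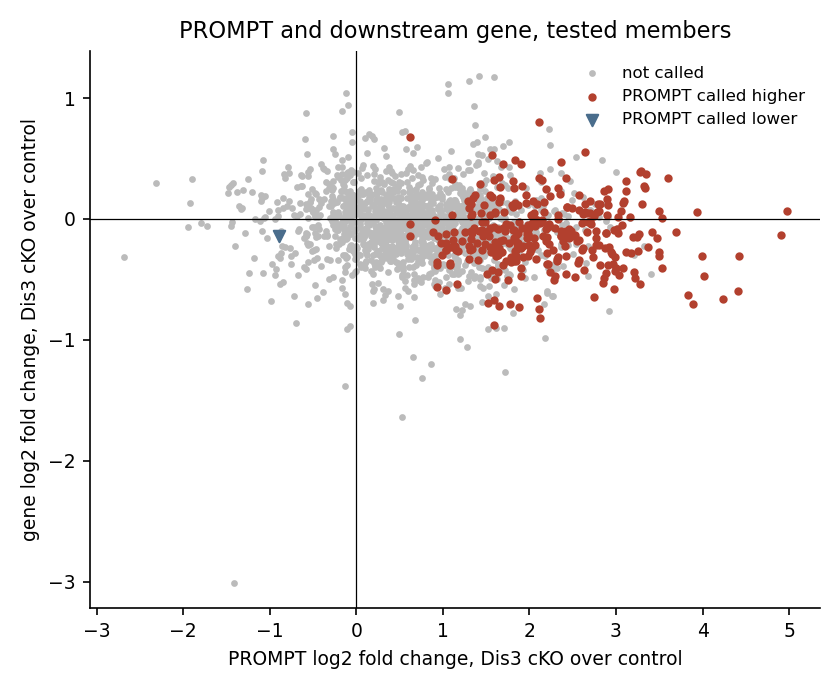
Log2 fold change of the antisense RNA (x axis) against that of the downstream gene (y axis), both Dis3 cKO over control, for the 1829 tested regions. Red points are the 326 regions called higher, which spread to 4.97 on the x axis while their genes stay near 0 (median -0.13), and the blue triangle is Polr1e.

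Among the genes called lower, the 3 with the lowest antisense adjusted p were Nrbf2, Gtsf1 and Galnt12. The Gtsf1 gene averaged 199 ± 25.03 normalized counts in Dis3 cKO and 314 ± 53.6 in control (log2 fold change -0.66 ± 0.14, adjusted p = 0.0121, edgeR), while its antisense RNA rose as given above. The Nrbf2 gene averaged 173 ± 26.6 in Dis3 cKO and 269 ± 36.5 in control (-0.63 ± 0.14, adjusted p = 0.0152, edgeR). Galnt12, an enzyme of mucin-type O-glycosylation, had antisense counts of 20.4 to 74.1 in Dis3 cKO and 0.840 to 10.5 in control (2.99 ± 0.47) and a gene fold change of -0.43 ± 0.10 (adjusted p = 0.0242, edgeR).

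Only 3 genes with a called antisense increase were called higher, Oxtr, Slitrk5 and Tsku. The Oxtr gene averaged 958 ± 169 in Dis3 cKO and 597 ± 74.7 in control (log2 fold change 0.68 ± 0.12, adjusted p = 0.00551, edgeR), close to the 0.62 of its antisense RNA. Slitrk5, a neuronal transmembrane protein, had 29.4 to 54.4 antisense counts in Dis3 cKO and 8.48 to 18.5 in control (1.57 ± 0.39), with a gene fold change of 0.53 ± 0.13, and its antisense call was lost with the pseudogene scaling (adjusted p = 0.103, edgeR), with sizes from the PROMPT counts (0.227) and in replicates 1 to 3 alone (0.07985). Tsku, a secreted leucine-rich repeat protein, had 7.75 to 19.0 in Dis3 cKO and 0 to 4.79 in control (2.15 ± 0.78), and its antisense call was lost without any of Dis3 cKO replicates 1, 2, 3 and 5 and control replicates 1, 2 and 3, with adjusted p of 0.0512 to 0.183 (edgeR), and with the pseudogene scaling (0.0947) and sizes from the PROMPT counts (0.367).

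Per kilobase, the antisense RNA remained scarcer than the exons of most downstream genes. Over the 326 called regions the median ratio of antisense to gene counts per kilobase was 0.128 in Dis3 cKO and 0.0269 in control. The antisense density exceeded that of the gene at 19 of the 2978 genes in Dis3 cKO and at 6 in control. For Cyb561 it was 98.1 normalized counts per kilobase in Dis3 cKO, above the 75.1 of the gene, and 7.57 in control, below the 80.8 of the gene. For Gtsf1 it was 18.2 in Dis3 cKO, against 143 for the gene, and 0.942 in control, against 226 for the gene. At Oxtr the antisense density exceeded the gene in both groups, with 654 in Dis3 cKO and 426 in control, against 200 and 125 for the gene in Dis3 cKO and in control.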

How the data were processed

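RNA from P4 testes of 5 Dis3 cKO and 5 control mice was made into stranded, rRNA-depleted libraries with random and poly(T) priming. Per the processing notes the authors used cutadapt, HISAT2 and featureCounts with GRCm38.p5, while the methods of the study name a later build. The deposited headers show featureCounts 1.6.4 and the mouse GENCODE release M18. The deposited values are raw counts per gene (sense) and per 3000-base PROMPT region (antisense), and groups came from the labels. Biotypes and symbols were taken from a later GENCODE release by Ensembl ID (28745 of 30166 regions matched). PROMPT counts averaging at least 3 per library were tested with edgeR 4.0.16 (quasi-likelihood, TMM factors and library sizes from genes, Benjamini-Hochberg), and genes likewise after filterByExpr. The scripts were tested on simulated data. Alternatives were DESeq2 1.42.0, other scalings and filters, subsets of libraries and omission of single libraries. Named regions were chosen by a rule: the 10 largest called increases without overlap at a mean of at least 20 counts, called decreases, the 5 highest control levels, the 5 lowest p, up to 3 called per gene list, up to 3 whose gene was called higher or lower, and those at the bounds. Not every region the rule chose is reported here. The regions and lists were chosen with earlier results of these data known. Library biological variation was 0.690 for PROMPTs and 0.172 for genes (coefficient, edgeR). The p-values rest on the spread between these mice, which edgeR pools across regions, so their size also depends on the count minimum. With a minimum mean of 10 counts the Cyb561 log2 fold change stayed at 3.69. Its adjusted p moved from 1.11e-41 to 3.39e-10, and that of Gtsf1 from 1.03e-16 to 2.42e-06 (edgeR).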

Additional observations from a re-analysis of the deposited data

Results flagged for a closer look

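Within groups of 5 libraries, 1 library stood far from the others in 5 of 88 comparisons of named regions and summed levels (a gap over 0.71 of the group's range), and chance alone flags about 1 in 20. Dis3 cKO replicate 1 was the highest for the summed antisense level of weakly expressed genes, at 1292 counts per 1000000 effective gene counts, and for the Neil2 region, at 53.1 normalized counts. Control replicate 5 was the highest control library for Six4, at 11.9, and for Pou5f1, at 3.68 counts. Control replicate 1 was the highest control library for Kcnc2, at 25.2 counts.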

How the results depend on the processing

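Leaving out single libraries gave 239 to 321 antisense regions called higher, 1 called lower each time, a log2 ratio of the summed level of 0.80 to 0.98, 0.873% to 2.32% of downstream genes called higher and 2.52% to 4.50% called lower. Replicates 4 and 5 alone gave 72 regions called higher, and replicates 1 to 3 alone gave 0 called lower (21 at an unadjusted p under 0.05, edgeR). Scaling by the counts upstream of processed pseudogenes gave 187 higher and 0 lower (11 at an unadjusted p under 0.05, Polr1e at an adjusted p of 0.0522, edgeR), and a log2 ratio of the sum of 0.66, whereas subtracting that background gave 1.25. TMM factors of the PROMPT counts, which set the median of all regions to -0.08, gave 116 higher and 14 lower. They turned the fold changes of Oxtr to -0.13, Rpl10l to -0.52 and Mtrf1 to -0.14, with Med26 called lower (-0.83), and replicates 4 and 5 alone turned Rpl10l to -0.53. Of the 2978 downstream genes, DESeq2 called 3.53% higher and 6.82% lower (7.065% and 5.17% over all genes), a term for the 2 subsets of libraries 4.6% and 8.86% (8.84% and 8.33%), replicates 4 and 5 alone 11.01% and 9.40% (11.7% each), replicates 1 to 3 alone 3.09% higher (4.80%), and gene totals without TMM factors 8.03% lower (8.04%). With the replicate number as a block 311 regions were higher and 1 lower, and 3.22% of genes higher and 6.68% lower (7.43% and 6.67% over all genes). Same-numbered libraries deviated together with correlations of -0.02 to 0.04 over PROMPTs and 0.08 to 0.18 over genes, where 3 of 5 pairs exceeded 0.1 and 3 of 5 Dis3 cKO libraries correlated best with the control of their number. No label ties a number to a litter or day, so the replicate number was not used to pair mice. The other alternatives kept the direction of these results and their counts within 1.5 times, with 262 to 389 regions called higher, and the causes of the shifts were not tested. With an average of 12.2 or fewer counts per region in each library, small differences at most single regions stay below detection.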
